A study of Mus musculus with 10 samples.

Results

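Hormone receptors and hormone-metabolizing enzymes were followed in the salivary glands of female NOD/shiLtJ mice, an inbred strain prone to autoimmune diabetes and to inflammation of the salivary glands. The set held 9 genes: the thyroid hormone receptors Thra and Thrb, the deiodinase Dio1, the oestrogen receptor Esr1, the progesterone receptor Pgr, the growth hormone receptor Ghr, the prolactin receptor Prlr, the mineralocorticoid receptor Nr3c2 and the steroid 5-alpha-reductase Srd5a1. For each, the brightest probe set with that 1 gene symbol was used. This found 7 of the 9 among 18826 genes tested. Prlr and Srd5a1 have no entry in the gene table used to name the probe sets and were not analysed here. The androgen receptor was not among the 9 genes or in the gene lists used below, so its level was not examined.

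There were 3 groups of arrays, all from females. Diabetic mice (type 1 diabetes, 21 weeks old) gave 4 arrays, nondiabetic mice of the same age gave 3, and young nondiabetic mice, 6 weeks old, gave another 3. The labels give no transgene or drug for any group, and call the tissue salivary gland without saying which gland was taken. The tissue was dissociated with the enzymes dispase II and collagenase IV, and the filtered cells gave the RNA, so each array reads a mixture of cell types. Mice are only numbered within a group in the labels, so the p-values measure the spread between these arrays, which may be technical in part.

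In the mouse submandibular gland the granular convoluted tubules, duct segments that store kallikreins and growth factors, are larger in males and depend on androgens, thyroid hormone and adrenal steroids. The nuclear receptors in the set bind their hormone and act on genes directly, whereas the growth hormone and prolactin receptors sit in the cell membrane and signal through the kinase Jak2 and the factor Stat5. Dio1 converts thyroxine to the active thyroid hormone, and Srd5a1 converts testosterone to the more potent dihydrotestosterone.

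The serous acinar markers averaged 6.54 to 10.32 on the log2 intensity scale over all arrays, against array medians of 3.53 to 3.69. Defining salivary genes were thus present in every array, though not evenly. The list's mean was 10.06 to 10.32 in diabetic, 6.54 to 7.87 in nondiabetic 21-week and 7.87 to 9.32 in 6-week arrays. The labels do not name the gland, and the part of a different mix of glands in any group difference was not tested. Nondiabetic 21-week array 3 was the least like the rest, with correlations of 0.901 to 0.93 with the other arrays. Diabetic array 4 had the highest T cell marker mean of all arrays, 5.69 against 3.39 to 4.85 in the other 9. In a mixed tissue, fewer cells of a type and less RNA per cell cannot be told apart.

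None of the 7 measured hormone genes passed the test in the comparison of diabetic with nondiabetic glands at 21 weeks (0 of 7 by limma, 1 at an unadjusted p under 0.05). Over all genes, 1.44% passed (1.1% higher and 0.34% lower in diabetic glands) and 15.8% had an unadjusted p under 0.05. Of the 7, 4 had a difference below 0, with a median of -0.07 beside 0.03 over all genes. The 12 measured markers of the granular convoluted tubule all fell in the same arrays. Their mean lay between 4.90 and 6.94 in diabetic glands, against 9.35 to 10.05 in nondiabetic 21-week glands. For androgens, on which these tubules depend, the set held no measured gene. Of the hormone genes, Ghr had the lowest difference, and it was also the only measured member whose diabetic arrays all lay below the nondiabetic 21-week arrays. Over all genes, 4.98% lay wholly lower in this way. No measured member (0 of 7) lay wholly higher, as 9.11% of all genes did.

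Thra encodes the thyroid hormone receptor alpha. Its log2 intensity was 4.50, 4.42, 4.44 and 4.96 in diabetic glands, against 4.60, 4.53 and 4.52 in nondiabetic glands of 21 weeks and 4.54, 4.43 and 4.63 in those of 6 weeks. The groups overlapped, and diabetic array 4 was the highest of all. The difference between diabetic and nondiabetic 21-week glands was 0.03 ± 0.14 (SE, adjusted p = 0.949). Its 95% interval ran from -0.28 to 0.34, which leaves room for a level at most 1.22-fold lower or 1.27-fold higher. The age difference, 21 against 6 weeks without diabetes, was 0.02 ± 0.15 (adjusted p = 0.986).

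Thrb encodes the thyroid hormone receptor beta. It measured 5.68, 5.65, 5.68 and 5.41 in the diabetic arrays, against 5.65, 5.85 and 5.77 in nondiabetic 21-week arrays and 5.72, 6.10 and 6.26 in 6-week arrays. The group means stood in the order of diabetic (5.61 ± 0.13, SD, n = 4), nondiabetic 21 weeks (5.75 ± 0.10, n = 3) and 6 weeks (6.03 ± 0.28, n = 3), and neighbours in this order overlapped. Diabetic and nondiabetic 21-week glands differed by -0.15 ± 0.14 (adjusted p = 0.658), and 21-week and 6-week nondiabetic glands by -0.28 ± 0.15 (adjusted p = 0.717). Between diabetic 21-week and nondiabetic 6-week glands, which differ in age as well as diabetes, the arrays did not overlap, and the difference of -0.42 ± 0.14 did not pass (adjusted p = 0.184). With 1 array left out, the Thrb difference lay between -0.201 and -0.083 with diabetes, between -0.43 and -0.157 with age and between -0.578 and -0.306 for both together.

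Dio1 measured 3.88, 4.16, 4.12 and 3.66 in diabetic arrays, against 4.07, 3.63 and 3.41 in nondiabetic 21-week arrays and 3.81, 4.30 and 3.93 in 6-week arrays. Its groups overlapped in every comparison. Its signal lay between the 46.4th and 64.7th percentile of all probe sets on an array. The difference with diabetes was 0.25 ± 0.19 (adjusted p = 0.536) and with age -0.31 ± 0.20 (adjusted p = 0.759). Single arrays moved the Dio1 values. Without nondiabetic 21-week array 3 the differences were 0.109 with diabetes and -0.163 with age, and without array 1 of that group they were 0.436 and -0.491. Without 6-week array 2 the age difference was -0.164.

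**Figure D1:**
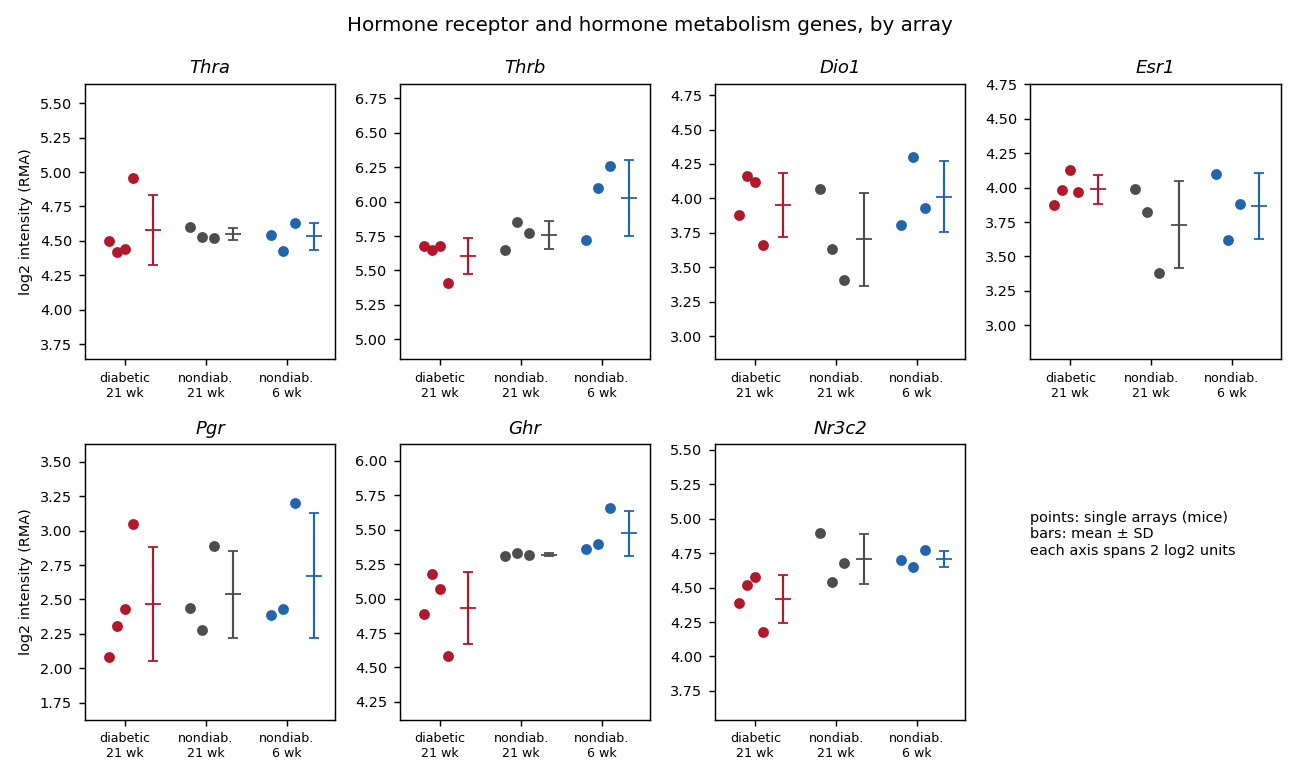
Log2 intensity (RMA) of the 7 measured hormone receptor and hormone metabolism genes, with 1 point per array and the mean ± SD beside each group (diabetic 21 weeks, n = 4; nondiabetic 21 weeks, n = 3; nondiabetic 6 weeks, n = 3). The 4 diabetic arrays of Ghr, 4.58 to 5.18, sit below the 3 nondiabetic 21-week arrays at 5.31 to 5.33, while the points of the other 6 genes overlap between these groups.

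Esr1, the oestrogen receptor alpha, was similarly placed on the arrays, between the 45.2nd and 60.6th percentile of an array. It measured 3.87, 3.98, 4.13 and 3.97 in diabetic arrays, against 3.99, 3.82 and 3.38 in nondiabetic 21-week arrays and 4.10, 3.62 and 3.88 in 6-week arrays. The lowest value was that of nondiabetic array 3, the array least like the rest. The difference with diabetes was 0.26 ± 0.16 (adjusted p = 0.461), and with age it was -0.14 ± 0.17 (adjusted p = 0.877). The Esr1 difference with diabetes was 0.085 without nondiabetic 21-week array 3 (adjusted p = 0.857) and 0.391 without array 1 of that group (adjusted p = 0.293).

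Pgr, which oestrogen induces in the reproductive tract and mammary gland, was close to background. Its probe set exceeded the array's 25th percentile in only 3 of 10 arrays, the fewest the filter allows. It measured 2.08, 2.31, 2.43 and 3.05 in diabetic arrays, against 2.44, 2.28 and 2.89 in nondiabetic 21-week arrays and 2.39, 2.43 and 3.20 in 6-week arrays. In each group 1 array stood above the others. Its residual SD of 0.401 was higher than that of 94.7% of genes. The difference with diabetes was -0.07 ± 0.25 (adjusted p = 0.919), and the 95% interval of -0.61 to 0.47 was the widest of the set. An observed Pgr difference under 2.16-fold would not have passed the test in this comparison.

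Ghr, the receptor through which growth hormone induces Igf1, gave the largest difference of the set with diabetes. It measured 4.89, 5.18, 5.07 and 4.58 in diabetic arrays, against 5.31, 5.33 and 5.32 in nondiabetic 21-week arrays and 5.36, 5.40 and 5.66 in 6-week arrays. All 4 diabetic arrays lay below all 6 nondiabetic arrays, and the 3 nondiabetic 21-week arrays lay below the 6-week arrays. The difference between diabetic and nondiabetic 21-week glands was -0.39 ± 0.15 (unadjusted p = 0.0216, adjusted p = 0.234). Its 95% interval, before adjustment for the number of genes, ran from -0.71 to -0.07. The difference between diabetic 21-week and nondiabetic 6-week glands was -0.54 ± 0.15 (adjusted p = 0.0995), and the age difference without diabetes was -0.15 ± 0.16 (adjusted p = 0.844; -0.211 to -0.058 with 1 array left out). Without diabetic array 4, the lowest for Ghr and the one rich in lymphocyte markers, the difference with diabetes was -0.28 (adjusted p = 0.325).

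Nr3c2, the receptor for aldosterone in salt-transporting ducts, measured 4.39, 4.52, 4.58 and 4.18 in diabetic arrays, against 4.90, 4.54 and 4.68 in nondiabetic 21-week arrays and 4.70, 4.65 and 4.77 in 6-week arrays. The diabetic arrays lay below the 6-week arrays and overlapped the nondiabetic 21-week arrays by 1 array. The differences were -0.29 ± 0.14 against nondiabetic 21-week glands (adjusted p = 0.32) and -0.29 ± 0.14 against 6-week glands (adjusted p = 0.347). With age alone it was 0.00 ± 0.14 (adjusted p = 0.998). A second Nr3c2 probe set was below the 25th percentile in every array, at 2.05 to 2.51 in diabetic glands, 2.31 to 2.57 in nondiabetic 21-week glands and 2.41 to 2.61 in 6-week glands. Another probe set, which the gene table assigns to both Nr3c2 and Gm10649 and which was therefore not tested, exceeded the 25th percentile in all 10 arrays. It read 3.81 to 4.15 in diabetic glands, 3.61 to 4.28 in nondiabetic 21-week glands and 3.69 to 4.15 in 6-week glands. These groups overlapped, and the means of 3.98 in diabetic and 4.01 in nondiabetic 21-week glands differed by less than the SD of either group (0.14 and 0.36). With 1 array left out, the tested probe set's difference with diabetes lay between -0.375 and -0.193.

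**Figure D2:**
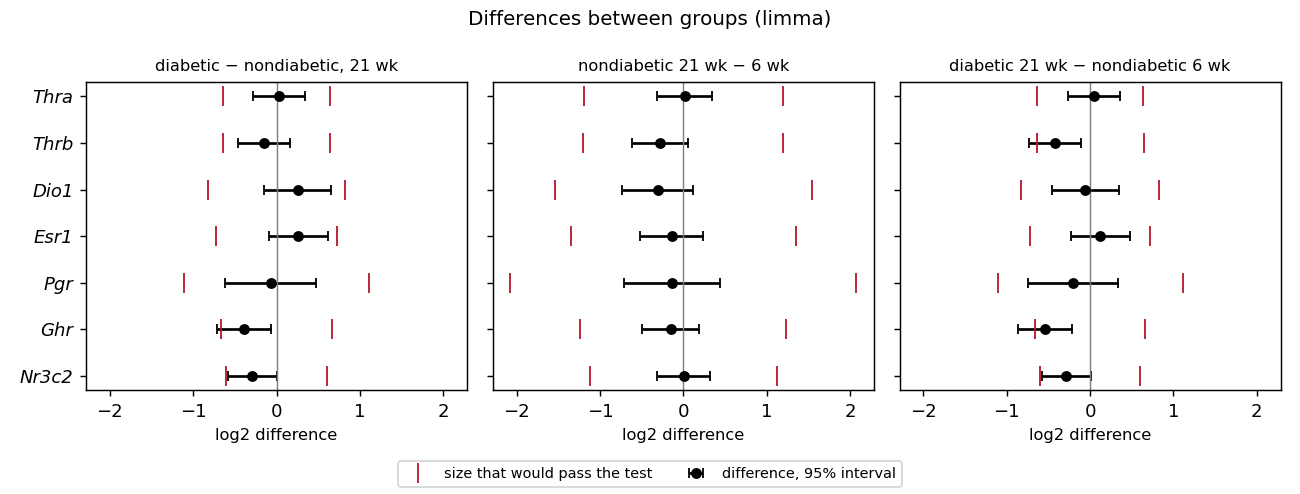
Log2 differences between groups for the 7 measured genes, with 95% intervals from the limma fit, in 3 panels for the 3 comparisons, and red ticks at the size of difference that would have passed the adjusted threshold. All 21 points lie inside their red ticks; the ticks for Ghr stand at 0.66 either side of 0 in the diabetes panel and at 1.24 in the age panel.

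The design bounded these differences unevenly. With the spread seen on these arrays, the smallest observed change that would have passed in the diabetes comparison was 1.52-fold for Nr3c2, 1.56-fold for Thra and Thrb, 1.58-fold for Ghr, 1.65-fold for Esr1, 1.77-fold for Dio1 and 2.16-fold for Pgr. In the age comparison, where 5 genes passed in all, it was 2.18-fold for Nr3c2 and 4.22-fold for Pgr.

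Nondiabetic glands at 21 and at 6 weeks gave no hormone gene past the test (0 of 7 by limma, 0 at an unadjusted p under 0.05). Over all genes 0.0266% passed (0.00531% higher and 0.0212% lower at 21 weeks) and 7.47% had an unadjusted p under 0.05. The 5 genes that passed are named here after their values were seen: Coch rose by 1.70 on the log2 scale, and Tll1 (-2.05), 2310057J18Rik (-1.47), Chn2 (-1.33) and Pim3 (-1.12) fell. Of the hormone genes, 5 of 7 had a log2 difference below 0, with a median of -0.14 beside -0.06 over all genes. Only Ghr had arrays that did not overlap, lower at 21 weeks, as did 9.73% of all genes, and 0 of 7 lay wholly higher, as did 4.11%.

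Diabetic 21-week against nondiabetic 6-week glands gave 0 of 7 by limma, where 1.44% of all genes passed (0.903% higher and 0.542% lower in diabetic glands), and 2 of 7 at an unadjusted p under 0.05 (Thrb and Ghr), where 14.9% of all genes did. The arrays lay wholly lower in diabetic glands for 3 of 7 (Thrb, Ghr and Nr3c2), as they did for 8.49% of all genes, and wholly higher for 0 of 7, as for 8.2% of all genes. The median difference was -0.21, beside -0.02 over all genes. This comparison uses the same diabetic arrays as the first and the same 6-week arrays as the second, so its values are not a separate observation of them.

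The genes around the receptors were taken from 5 lists chosen by function, with earlier results of these data known. A list's share beside that of all genes is therefore a description and not a test. Growth hormone and prolactin signalling, downstream of Ghr and Prlr, had 20 of 21 genes measured, of which 1 rose with diabetes, 0 fell and 19 did not pass. An unadjusted p under 0.05 was reached by 9 of the 20, beside 15.8% of all genes, and the median difference was 0.20, beside 0.03 over all genes. Igf1, the growth factor that growth hormone induces, measured 4.61, 4.56, 4.83 and 5.29 in diabetic arrays, against 3.94, 4.01 and 3.78 in nondiabetic 21-week arrays and 4.65, 3.85 and 4.11 in 6-week arrays. It rose 1.88-fold (0.91 ± 0.21, adjusted p = 0.0494), while the level of its upstream receptor Ghr had a difference of -0.39. The Igf1 call was at the threshold. It was lost without any 1 of the diabetic or nondiabetic 21-week arrays and without 6-week array 3 (adjusted p = 0.0612 to 0.171).

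Other genes of this pathway did not pass. Socs3, a feedback inhibitor of cytokine receptors, averaged 5.78 ± 0.57 in diabetic glands (SD, n = 4) and 4.67 ± 0.22 in nondiabetic 21-week glands (SD, n = 3), a difference of 1.12 ± 0.27 (adjusted p = 0.065). The kinase Jak2 had a difference of 0.64 (adjusted p = 0.0749) and Igfbp4, which binds Igf1, 0.73 (adjusted p = 0.071). The growth hormone response genes Socs2 (0.25, adjusted p = 0.622) and Cish (-0.09, adjusted p = 0.816) overlapped between the groups, as did the signalling factor Stat5a (-0.05, adjusted p = 0.895). With age, 0 of 20 passed by limma (1 at an unadjusted p under 0.05, beside 7.47% of all genes). Igfals, a carrier of Igf1, had the smallest p (0.60 ± 0.20, adjusted p = 0.572). Stat5b came next at -0.26 ± 0.12 (adjusted p = 0.669). Between diabetic and 6-week glands 0 of 20 passed by limma (7 at an unadjusted p under 0.05, beside 14.9% of all genes). Elf5, a regulator of secretory epithelium downstream of prolactin in the mammary gland, stood at -0.52 ± 0.14 (adjusted p = 0.085). Socs3 stood at 1.03 ± 0.27 (adjusted p = 0.0857).

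**Figure D3:**
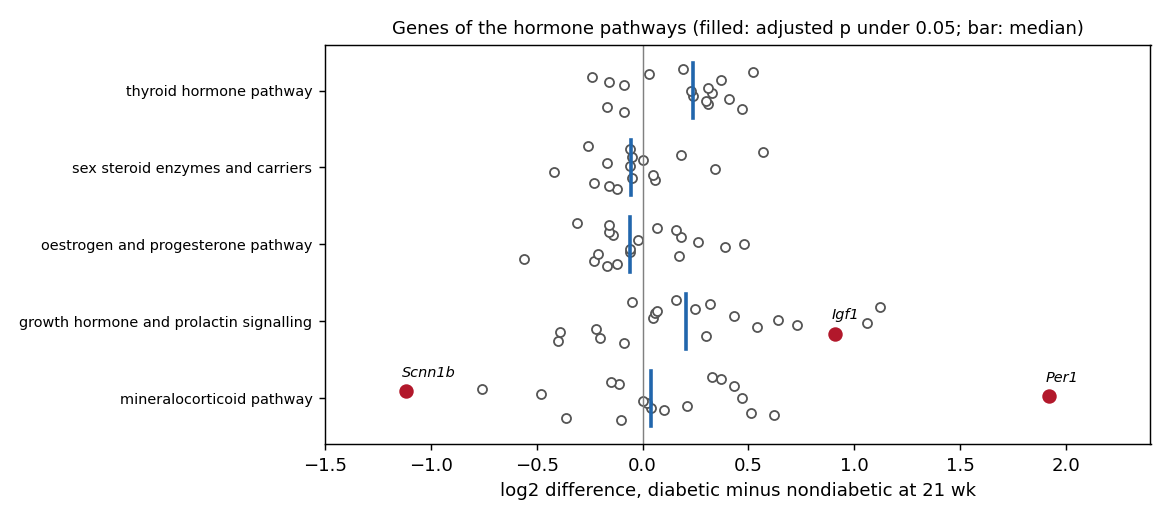
Log2 differences between diabetic and nondiabetic 21-week glands for the measured genes of 5 hormone pathway lists, 1 circle per gene, with filled circles past the adjusted threshold and a bar at each list's median. Only Scnn1b (-1.12), Igf1 (0.91) and Per1 (1.92) are filled, and the list medians lie between -0.06 and 0.24.

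The mineralocorticoid list had 19 of 20 genes measured around Nr3c2, of which 1 rose, 1 fell and 17 did not pass with diabetes, with a median of 0.04. An unadjusted p under 0.05 was reached by 9 of the 19 with diabetes, beside 15.8% of all genes, and by 5 of the 19 between diabetic and 6-week glands, beside 14.9%. Scnn1b, the beta subunit of the epithelial sodium channel that aldosterone regulates in ducts, measured 4.99, 5.25, 4.76 and 5.23 in diabetic arrays, against 6.10, 6.24 and 6.19 in nondiabetic 21-week arrays and 5.78, 5.88 and 6.18 in 6-week arrays. It fell by 1.12 ± 0.15 on the log2 scale, a 2.17-fold difference (adjusted p = 0.00328), and the diabetic arrays lay below all 6 others. The other subunits had negative differences that did not pass: -0.76 ± 0.24 for Scnn1g (adjusted p = 0.154) and -0.48 ± 0.19 for Scnn1a (adjusted p = 0.246). Against the 6-week glands Scnn1b fell by 0.89 ± 0.15 (adjusted p = 0.0133), a call lost without 6-week array 2 (adjusted p = 0.0573) or 3 (adjusted p = 0.0843).

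Per1, a clock gene that corticosteroids also induce, measured 6.95, 7.27, 8.25 and 7.82 in diabetic arrays, against 6.01, 5.56 and 5.40 in nondiabetic 21-week arrays and 6.26, 6.29 and 6.55 in 6-week arrays. It rose 3.78-fold with diabetes (1.92 ± 0.26, adjusted p = 0.00382), and no diabetic array overlapped another group. Against 6-week glands Per1 rose by 1.21 ± 0.26 (adjusted p = 0.041), a call lost when any of 7 of the 10 arrays was left out. Those were 6-week arrays 1, 2 and 3, diabetic arrays 2, 3 and 4 and nondiabetic 21-week array 2. With age alone 0 of 19 genes of the list passed by limma (1 at an unadjusted p under 0.05, beside 7.47% of all genes). Per1 stood at -0.71 ± 0.28 (adjusted p = 0.629) and the glucocorticoid receptor Nr3c1 at -0.29 ± 0.15 (adjusted p = 0.698). Other genes that corticosteroids induce did not pass with diabetes: Sgk1 had a difference of 0.43 (adjusted p = 0.298), Tsc22d3 0.37 (adjusted p = 0.366) and Fkbp5 0.62 (adjusted p = 0.182). Hsd11b2, the enzyme that shields Nr3c2 from corticosterone, had 0.10 ± 0.20 (adjusted p = 0.851). Nr3c1 had 0.47 ± 0.14 with diabetes and did not pass by limma (adjusted p = 0.143). The hour of collection is not given in the sources used here, and its part in the Per1 result was not tested.

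**Figure D4:**
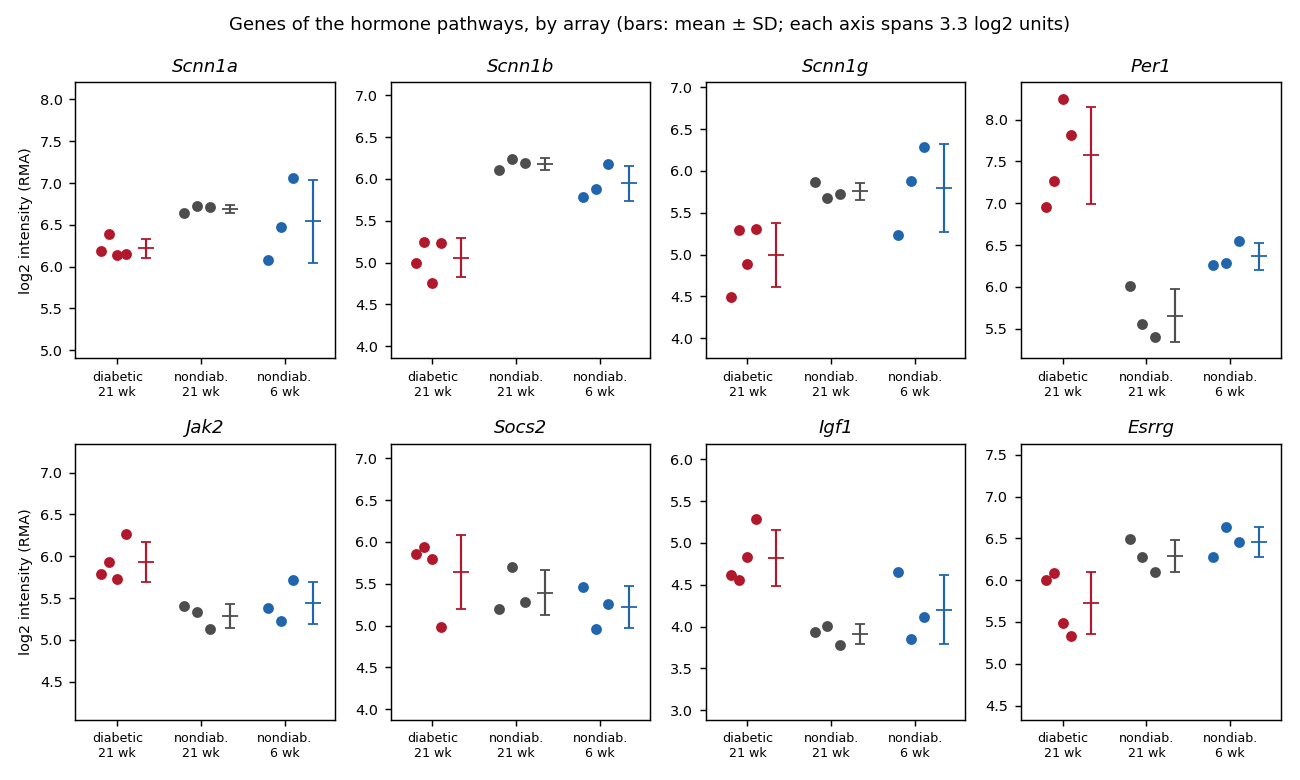
Log2 intensity (RMA) by array of 8 genes from the hormone pathway lists, with points for single arrays and the mean ± SD beside each group, in the order diabetic 21 weeks, nondiabetic 21 weeks and nondiabetic 6 weeks. Scnn1b is lower in all 4 diabetic arrays, 4.76 to 5.25, than in the other 6, and Per1 is higher, 6.95 to 8.25, than in the other 6.

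The sequences upstream of the genes that passed are shown with that of Ghr, the hormone gene with the largest difference, so that the promoters of pathway genes that rose and that fell can be read side by side. They are the 250 bases before the first listed start of each gene in RefSeq, build GRCm38.p6, written 5′ to 3′ on the gene's own strand. Capitals mark either of 2 half-sites, searched on both strands. The corticosteroid type is AGAACA, and its complement read on the other strand is TGTTCT. The type of the oestrogen and thyroid hormone receptors is AGGTCA, and its complement is TGACCT.
Ghr (chr15:3583353-3583602, minus strand): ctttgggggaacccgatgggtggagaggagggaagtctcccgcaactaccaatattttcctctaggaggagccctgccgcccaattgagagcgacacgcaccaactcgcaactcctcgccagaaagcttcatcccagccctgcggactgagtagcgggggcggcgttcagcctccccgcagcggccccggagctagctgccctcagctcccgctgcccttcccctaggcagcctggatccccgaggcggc
Igf1 (chr10:87860861-87861110, plus strand): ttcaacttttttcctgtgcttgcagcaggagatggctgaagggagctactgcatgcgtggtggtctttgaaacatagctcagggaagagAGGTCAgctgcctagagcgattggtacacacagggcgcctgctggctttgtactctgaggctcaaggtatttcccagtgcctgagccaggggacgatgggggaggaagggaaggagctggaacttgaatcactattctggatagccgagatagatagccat
Scnn1b (chr7:121864788-121865037, plus strand): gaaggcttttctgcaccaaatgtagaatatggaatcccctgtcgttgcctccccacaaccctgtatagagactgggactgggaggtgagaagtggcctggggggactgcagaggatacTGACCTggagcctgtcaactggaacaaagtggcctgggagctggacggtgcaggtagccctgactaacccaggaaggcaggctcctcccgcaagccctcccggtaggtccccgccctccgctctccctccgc
Per1 (chr11:69098699-69098948, plus strand): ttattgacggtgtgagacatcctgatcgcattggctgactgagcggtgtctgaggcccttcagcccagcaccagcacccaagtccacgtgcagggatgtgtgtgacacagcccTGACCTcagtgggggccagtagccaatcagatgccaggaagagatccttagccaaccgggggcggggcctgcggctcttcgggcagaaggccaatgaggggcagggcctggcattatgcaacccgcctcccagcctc

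AGGTCA or its complement began at -161 in Igf1, -132 in Scnn1b and -137 in Per1, counted back from the start, and occurred 0 times in the Ghr window. The window of a second listed Per1 start, not shown, held it 0 times. Among the windows found for the other hormone genes, it occurred only before the first Thrb start, at -184. Of 32851 windows of this length over all promoters, 14% held it. AGAACA or its complement occurred 0 times in the 4 windows shown, and in 16.1% of all windows. Among the windows of the other hormone genes, it occurred before the second Thrb start, at -23 and -7, and before the second Prlr start, at -12. A match of 6 letters is a description of the sequence and shows no binding.

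The thyroid hormone list, with transporters, deiodinases, partners and targets of Thra and Thrb, had 17 of 20 genes measured. With diabetes 0 of these passed by limma (5 at an unadjusted p under 0.05, beside 15.8% of all genes). The list's median difference was 0.24, beside 0.03 over all genes. Dio2, a second activating deiodinase, had the smallest p. It averaged 2.93 ± 0.05 in diabetic glands (SD, n = 4) and 2.46 ± 0.27 in nondiabetic 21-week glands (SD, n = 3), close to the arrays' 25th percentiles of 2.58 to 2.70 (0.47 ± 0.15, adjusted p = 0.166). The coactivator Ncoa1 had 0.33 ± 0.13 (adjusted p = 0.24) and the thyroid hormone target Klf9 0.30 ± 0.13 (adjusted p = 0.286). With age 0 of 17 passed by limma (4 at an unadjusted p under 0.05, beside 7.47% of all genes). Thrsp and Hr, which thyroid hormone induces in liver and brain, had the smallest p, at -0.64 ± 0.17 (adjusted p = 0.481) and -0.56 ± 0.16 (adjusted p = 0.518), with all nondiabetic 21-week arrays below all 6-week arrays for both. The same held for 9.73% of all genes. Between diabetic and 6-week glands 0 of 17 passed by limma (1 at an unadjusted p under 0.05, beside 14.9% of all genes). Thrsp stood at -0.45 ± 0.16 (adjusted p = 0.21) and the receptor partner Rxrg at -0.49 ± 0.24 (adjusted p = 0.36).

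The oestrogen and progesterone list had 19 of 20 genes measured around Esr1 and Pgr. With diabetes 0 of these passed by limma (3 at an unadjusted p under 0.05, beside 15.8% of all genes), and the median was -0.06. Nrip1, a corepressor that oestrogen induces, had 0.48 ± 0.15 (adjusted p = 0.153) and the orphan receptor Esrrg -0.56 ± 0.19 (adjusted p = 0.179), both without overlap between the groups. Over all genes, 9.11% lay wholly higher and 4.98% wholly lower in diabetic arrays. The second oestrogen receptor, Esr2, measured 4.15 ± 0.14 in diabetic glands (SD, n = 4) and 4.33 ± 0.01 in nondiabetic 21-week glands (SD, n = 3; adjusted p = 0.558). With age 0 of 19 passed by limma (1 at an unadjusted p under 0.05, beside 7.47% of all genes). Tff3 stood at -0.34 ± 0.16 (adjusted p = 0.664) and the membrane progestin receptor Paqr8 at -0.23 ± 0.14 (adjusted p = 0.753). Between diabetic and 6-week glands 0 of 19 passed by limma (2 at an unadjusted p under 0.05, beside 14.9% of all genes). Esrrg stood at -0.73 ± 0.19 (adjusted p = 0.085) and the coactivator Ncoa3 at 0.48 ± 0.14 (adjusted p = 0.121).

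The sex steroid enzymes and carriers had 16 of 22 genes measured. With diabetes 0 of these passed by limma (2 at an unadjusted p under 0.05, beside 15.8% of all genes), and the median was -0.06. The mitochondrial dehydrogenase Hsd17b10 had -0.42 ± 0.14 (adjusted p = 0.181), with all diabetic arrays below all nondiabetic 21-week arrays, as for 4.98% of all genes. Hsd17b7, also an enzyme of cholesterol synthesis, had 0.57 ± 0.25 (adjusted p = 0.3). Srd5a3, named for its likeness to Srd5a1, measured 5.11 ± 0.04 in diabetic glands (SD, n = 4) and 5.17 ± 0.13 in nondiabetic 21-week glands (SD, n = 3; adjusted p = 0.852). With age 0 of 16 passed by limma (0 at an unadjusted p under 0.05, beside 7.47% of all genes). Hsd17b6 stood at -0.36 ± 0.18 (adjusted p = 0.689) and Hsd17b3 at -0.35 ± 0.19 (adjusted p = 0.712). Between diabetic and 6-week glands 0 of 16 passed by limma (3 at an unadjusted p under 0.05, beside 14.9% of all genes). Hsd17b10 stood at -0.45 ± 0.14 (adjusted p = 0.157) and Hsd17b11 at 0.60 ± 0.20 (adjusted p = 0.167).

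Cell type markers differed between the groups whose hormone genes were compared. The granular convoluted tubule markers, 12 of 17 measured, averaged 8.21 to 8.70 in the 6-week glands, and 10 of the 12 fell in diabetic glands against these. With age alone 0 of the 12 passed by limma (8 at an unadjusted p under 0.05, beside 7.47% of all genes), with a median difference of 1.33. The striated and excretory duct markers, 15 of 15 measured, averaged 6.38 to 6.65 in diabetic arrays, 6.70 to 6.83 in nondiabetic 21-week arrays and 6.54 to 6.80 in 6-week arrays. Against nondiabetic 21-week glands 2 of the 15 fell, Scnn1b and Ascl3, a factor of ion-transporting duct cells (-1.24, adjusted p = 0.0104), and 0 rose. By limma 8 of the 15 had an unadjusted p under 0.05 in this comparison, beside 15.8% of all genes. Of the 15 serous acinar markers 6 rose with diabetes, with a median over the list of 2.71, and their mean was 10.06 to 10.32 in diabetic, 6.54 to 7.87 in nondiabetic 21-week and 7.87 to 9.32 in 6-week arrays. Of the adipocyte markers, 9 of 10 measured, 3 rose with diabetes (Car3 by 3.27, Fabp4 by 1.37 and Retn by 0.93 on the log2 scale), and the list's mean was 4.96 to 5.31 in diabetic arrays, 4.06 to 4.47 in nondiabetic 21-week arrays and 4.39 to 4.51 in 6-week arrays. The fibroblast markers, 10 of 10 measured, averaged 6.02 to 6.53 in diabetic, 4.94 to 5.65 in nondiabetic 21-week and 5.33 to 6.77 in 6-week arrays. With diabetes 0 of them passed by limma and 7 had an unadjusted p under 0.05, beside 15.8% of all genes. Of the macrophage markers, 8 of 8 measured, 2 rose with diabetes (Mrc1 by 1.53 and Cd68 by 1.17 on the log2 scale), and the list's mean was 5.66 to 6.32 in diabetic, 4.96 to 5.17 in nondiabetic 21-week and 4.88 to 5.45 in 6-week arrays. Of the myoepithelial and basal markers, 8 of 9 measured, 2 rose with diabetes (Acta2 by 1.26 and Myh11 by 0.91), with a mean of 4.59 to 4.92 in diabetic, 3.85 to 4.42 in nondiabetic 21-week and 4.20 to 4.39 in 6-week arrays. The tubule, duct, serous acinar, adipocyte, fibroblast, macrophage and myoepithelial means each did not overlap between diabetic and nondiabetic 21-week arrays. Fat cells, connective tissue cells and macrophages are known to express Igf1, and fat and connective tissue cells Ghr. The part of any of these cells in the Ghr and Igf1 values was not tested.

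**Figure D5:**
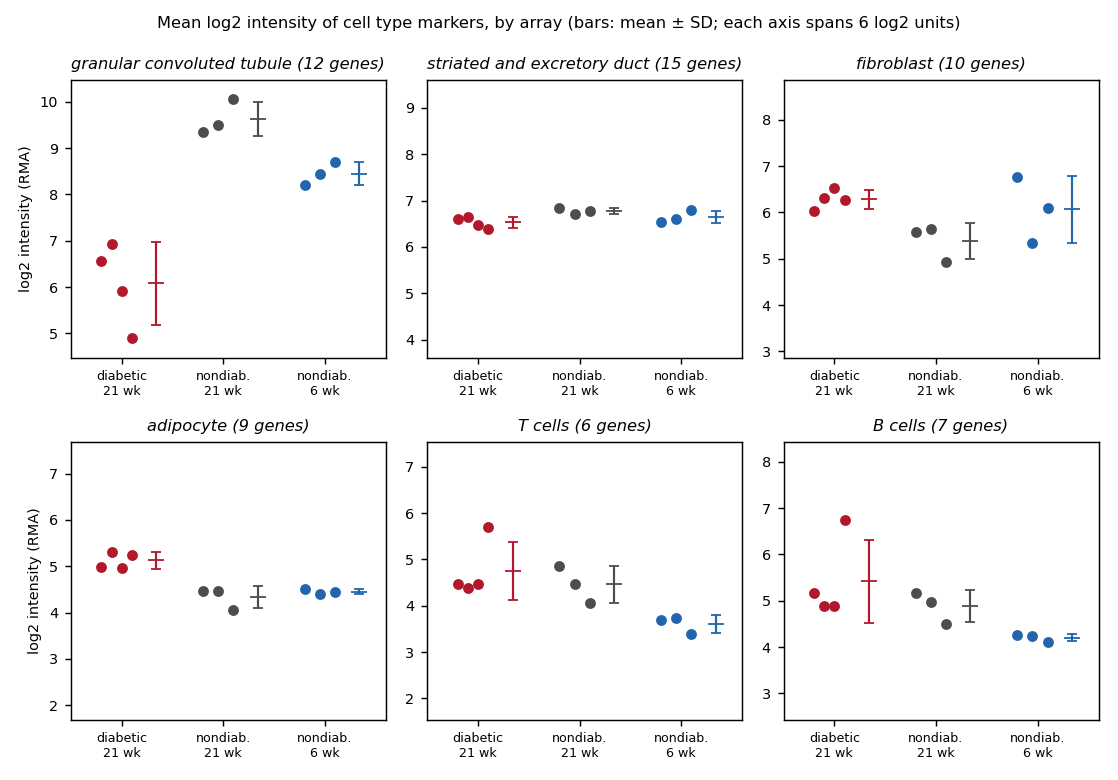
Mean log2 intensity (RMA) of 6 cell type marker lists by array, with the number of measured genes in each title, points for single arrays and the mean ± SD beside each group. The tubule markers stand at 4.90 to 6.94 in the diabetic arrays and at 8.21 to 10.05 in the nondiabetic arrays of both ages. The duct markers differ less, with diabetic arrays at 6.38 to 6.65, below the nondiabetic 21-week arrays at 6.70 to 6.83. Diabetic array 4 is the highest point for T cells and B cells.

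The lymphocyte markers were highest in diabetic array 4 and lowest in the 6-week arrays. T cell markers, 6 of 8 measured, averaged 3.39 to 3.74 in 6-week, 4.06 to 4.85 in nondiabetic 21-week and 4.39 to 5.69 in diabetic arrays. Against 6-week glands the T cell marker Cd3g (1.97, adjusted p = 0.0122 by limma) and the B cell marker Ighm (2.34, adjusted p = 0.0284) rose in diabetic glands. B cell markers, 7 of 8 measured, averaged 6.75 in diabetic array 4, against 4.88 to 5.17 in the other 3 diabetic arrays. They averaged 4.50 to 5.16 in nondiabetic 21-week arrays and 4.11 to 4.26 in 6-week arrays. In diabetic array 4 Thra and Pgr were the highest, and Thrb, Ghr, Nr3c2 and Dio1 the lowest, of the 4 diabetic arrays. The mammary epithelium list, mostly genes of milk production, had 5 of 8 markers measured. The list's mean was 3.26 to 3.79 in diabetic, 3.34 to 3.50 in nondiabetic 21-week and 3.25 to 3.41 in 6-week arrays, close to the arrays' medians. Low milk genes do not show whether mammary tissue, rich in Esr1, Pgr and Prlr, was included, so this was not tested. The list's casein genes Csn1s1, Csn1s2a and Csn2 were not analysed here.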

How the data were processed

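Gene expression was measured on 10 Affymetrix arrays of female mouse salivary gland cells. Values were deposited as log2 intensity per probe set. RMA, which normalizes arrays together, and Affymetrix Power Tools are the authors' tools per the submitters' processing notes, and no version is given there. Raw scans, detection calls and scan batches were not used here, so background correction and batches were not examined.

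Of 41345 probe sets, 23521 had 1 gene symbol, 1814 several and 16010 none in the gene table used. Probe sets with 1 symbol were kept if 3 or more arrays read them above that array's 25th percentile, and the brightest was used for its gene, which left 18826 genes. One mean per group was fitted to all arrays together in limma 3.58.1 (R 4.3.3; lmFit and eBayes, 7 residual and 5.61 prior degrees of freedom). Differences were tested two-sided and adjusted by Benjamini-Hochberg over all genes, with a threshold of 0.05, and their 95% intervals are unadjusted. The number of arrays limits the precision. The fit was tested on simulated data with independent noise, in which 200 differences of at least 1 on the log2 scale were planted. Of those of size 1, 80 to 84% were recovered, with 8 to 12 false calls per comparison. Smaller differences, such as those of the hormone genes, were not simulated. Alternatives changed the filter, scaling, variance model, array weights, the choice of probe set and the arrays included. Promoter sequences are RefSeq's (GRCm38.p6), found for 11 of 12 genes looked up.

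The members and lists were chosen with earlier results of these data known. All members are named. From each pathway list, the genes past the threshold in a comparison are named, or the 2 with the smallest p. Further pathway genes (Socs2, Cish, Stat5a, Jak2, Igfbp4, Klf9, Scnn1a, Scnn1g, Sgk1, Tsc22d3, Fkbp5, Hsd11b2, Esr2 and Srd5a3) and the Nr3c1 difference with diabetes were named after their values were seen. So were the markers Ascl3, Car3, Fabp4, Retn, Mrc1, Cd68, Acta2, Myh11, Cd3g and Ighm. Genes most like a member in pattern were to be named only for members that passed the test, and 0 did.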

Additional observations from a re-analysis of the deposited data

Results flagged for a closer look

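Within the 4 diabetic arrays, array 4 lay far from the other 3 for both thyroid hormone receptors, with a log2 intensity of 4.96 for Thra, above the others at 4.42 to 4.50, and 5.41 for Thrb, below the others at 5.65 to 5.68. Its gap to the nearest array was 0.837 of the group's range for Thra and 0.876 for Thrb, past Dixon's 95% critical value of 0.829 for 4 samples. Chance flags about 1 in 20 groups, and 7 groups were examined. The same array had the highest means of T cell markers (5.69) and B cell markers (6.75) and the lowest mean of granular convoluted tubule markers (4.90), and the part of these in the receptor values was not tested.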

How the results depend on the processing

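The count of hormone genes past the test was 0 in each comparison under all 21 alternatives. Pgr, near background, was not kept with the filter at the array median or without some of the arrays. The count of all genes past the test moved more. With diabetes it was 271, 148 with a change of at least 2-fold, 161 with only the groups compared in the fit and 84 to 267 with 1 array left out (84 without nondiabetic 21-week array 3, 97 and 153 without diabetic arrays 3 and 2, 161 without nondiabetic 21-week array 1). With age it was 5, 18 with array weights, 12 with trended and robust variance, 0 with only the groups compared (1377 at an unadjusted p under 0.05 by limma) and 1 to 10 with 1 array left out (1 and 3 without 6-week arrays 3 and 1, 10 and 8 without nondiabetic 21-week arrays 2 and 3). Between diabetic and 6-week glands it was 272, 672 with array weights, 128 with a change of at least 2-fold and 48 to 400 with 1 array left out (98, 68 and 48 without 6-week arrays 1, 2 and 3, 156 and 91 without diabetic arrays 2 and 3). Leaving out both nondiabetic 21-week array 3 and diabetic array 4, an alternative chosen after seeing the data, gave 176, 42 and 508. With quantile normalization 130 genes rose and 100 fell with diabetes, against 207 and 64 in the values reported, and 157 rose and 162 fell between diabetic and 6-week glands, against 170 and 102. The cause of these shifts was not tested.

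The labels number the arrays within a group and do not say whether equal numbers are paired. Same-numbered arrays deviated from their group means with correlations of -0.12 to 0.07. These values cannot show whether such arrays shared a litter, cage or batch. With the replicate block, the number as a factor, 204 genes passed with diabetes, 4 with age and 206 between diabetic and 6-week glands. This fit leaves diabetic array 4, the only array with its number, without weight. It ended the calls of Igf1 with diabetes (adjusted p = 0.109) and of Per1 against 6-week glands (adjusted p = 0.112). Igf1 passed in 6 of 20 alternatives and Per1 against 6-week glands in 9, while Scnn1b and Per1 with diabetes passed in all 20. A few genes short of the threshold passed under 1 or 2 alternatives: Socs3 with diabetes under median centring (adjusted p = 0.0476) and trended variance (adjusted p = 0.0493) and against 6-week glands with array weights (adjusted p = 0.0392), and Esrrg (adjusted p = 0.0444 with array weights, 0.0466 with quantile normalization), Elf5 (0.0431 with trended variance) and Thrsp (0.034 without both arrays named above) against 6-week glands.

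Hormone gene differences near 0 changed sign. Thra with diabetes was -0.05 with array weights, -0.063 with quantile normalization, -0.098 with the replicate block, -0.115 without both arrays and -0.098 to 0.083 with 1 array left out. Against 6-week glands Thra was -0.025 with array weights, -0.081 with the replicate block and without both arrays, and -0.081 to 0.10 with 1 array left out, and with age it was -0.036 to 0.066. Dio1 against 6-week glands was 0.043 with the replicate block and without both arrays, and -0.158 to 0.091 with 1 array left out. Esr1 with age was 0.037 without both arrays and -0.269 to 0.037 with 1 left out. Nr3c2 with age was -0.023 with array weights, -0.034 by its other probe set and -0.094 to 0.088 with 1 left out. Pgr with diabetes was -0.199 to 0.057 with 1 left out, over only the 7 of 10 such settings that kept its probe set. With the replicate block it was -0.265. The Ghr difference with diabetes was negative under every alternative, between -0.52 with quantile normalization and -0.28 without diabetic array 4 and with the replicate block.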
